A study of Mus musculus with 8 samples.

Results

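The granins of the secretory granule were followed in the neuro-intermediate lobe (NIL) of the mouse pituitary. The 5 genes chosen by name were Chga, Chgb, Scg2, Scg3 and Vgf, out of 48526 genes in the count table, and all 5 were among the 15580 genes with enough reads to be tested. Each was found by its symbol in the FPKM table (fragments per kilobase of gene, scaled to sequencing depth) and joined to the raw counts by its Ensembl identifier.

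RNA was sequenced from 8 libraries in 4 groups of 2. Each library was made from a pool of 5 lobes of C57B6 mice, and the study's methods give males of 3 months. WT mice carried no transgene. ACreb3l2 mice carried a dominant negative form of the transcription factor Creb3l2, AXBP1 mice carried one against XBP1, and ACreb3l2/AXBP1 mice, called double Tg here and ACreb3l2_AXBP1 in the plots, carried both. In each of these proteins the DNA-binding part of the factor is replaced by an acidic stretch, so that it pairs with its target through the leucine zipper and keeps it off DNA. A rat POMC promoter drove both transgenes, so they are aimed at POMC cells, whereas the pool also holds the posterior lobe, with its pituicytes and nerve endings. The labels do not name the founder line of either transgene. The comparisons ask whether blocking either factor, or both, changes the transcripts of the granule's own matrix proteins in melanotropes, the cells of the intermediate lobe that make the hormone precursor POMC.

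Granins are acidic, soluble proteins that are stored together with prohormones in dense-core granules. In the trans-Golgi they aggregate in calcium and mild acid, which helps to gather cargo for packing, and several of them are cut into peptides that are released with the hormone. Endocrine cells and neurons are the tissues in which they are best known, and chromogranin A serves as a marker of such cells.

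The granin genes lie on separate chromosomes (build mm10, GENCODE M21, protein coding). Chga (ENSMUSG00000021194) is at chr12:102554969-102565028, Chgb (ENSMUSG00000027350) at chr2:132781278-132795079 and Scg2 (ENSMUSG00000050711) at chr1:79434669-79440120. Scg3 (ENSMUSG00000032181) is at chr9:75643189-75684056 and Vgf (ENSMUSG00000037428) at chr5:137026392-137033351. None of the 5 shares an exonic base with another annotated gene.

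Creb3l2 and XBP1 are basic leucine zipper factors, a class whose sites often hold an ACGT core, and such cores were looked for in the RefSeq promoters (GRCm38.p6, 250 bases before the start site and 50 from it on). An entry was matched for 4 of the 5 granins. The palindrome TGACGTCA, the cyclic AMP response element, was in the windows of Chgb and Scg2, and in 1.79% of all 32851 promoters. The shorter TGACG, which overlaps it, was in the windows of Chga, Chgb, Scg2 and Scg3 and in 20.8% of all promoters, searched on both strands. The bare ACGT was in the windows of all 4 and in 30.9% of promoters, and TGACGTGG, a longer form of the core, was in none of the 4 and in 0.676% of promoters. The 30 bases around each match are shown, with the match in capitals and each sequence on the strand of its gene. Chgb and Scg2 share the palindrome letter for letter. The Chga and Scg3 windows hold TGACGTAA and TGACGCCA, which are close to the palindrome but not equal to it.
Chgb, chr2:132781559-132781588, plus strand, match starting 72 bases before the start site: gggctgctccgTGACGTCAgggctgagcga
Scg2, chr1:79440076-79440105, minus strand, match starting 68 bases before the start site: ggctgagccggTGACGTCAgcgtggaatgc
Chga, chr12:102554885-102554914, plus strand, match starting 44 bases before the start site: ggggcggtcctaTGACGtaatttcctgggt
Scg3, chr9:75684069-75684098, minus strand, match starting 30 bases before the start site: gcgctgggtcgcTGACGccatcctcacgcc
These are matches of letters in the reference sequence, and binding of either factor was not measured here.

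Total counts ran from 28256086 to 37988912 per library, and 23862 to 24784 genes had a count. All 5 melanotrope markers (Pomc, Tbx19, Pax7, Pcsk2 and Drd2) were counted in every library. The same was true of all markers of the anterior lobe, gonadotropes, pituicytes and astrocytes, endothelial cells, macrophages, fibroblasts, hypothalamic axons and erythroid cells; the pools thus held more than melanotropes. Normalized counts put all libraries at the mean depth after TMM scaling. A gene is said to have risen or fallen where the edgeR quasi-likelihood test gave an adjusted p (Benjamini and Hochberg, over all genes tested) under 0.05. Nothing in the labels says more of the replicates than that they are separate pools, so p-values measure the spread between pools. In bulk RNA, fewer cells of a type and less RNA per cell cannot be told apart.

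The targeted factors were read first, as a check of the labels. Both constructs hold coding sequence of their factor from the leucine zipper on, so reads from a transgene could be counted with the gene itself. Creb3l2 had 28642 and 28156 normalized counts with WT, 27174 and 26738 with ACreb3l2, 18810 and 22801 with AXBP1 and 21176 and 14024 with double Tg. No library with ACreb3l2 was above WT, and in double Tg Creb3l2 fell by 0.69 on the log2 scale (edgeR adjusted p = 0.0428, called in 7 of 18 alternatives). Xbp1 had 11860 and 13417 with WT, 9142 and 9193 with ACreb3l2, 12431 and 13831 with AXBP1 and 17615 and 12837 with double Tg. The AXBP1 and double Tg pairs overlapped WT, with log2 changes of 0.06 and 0.27 (edgeR adjusted p = 0.9 and 0.227), and the ACreb3l2 pair lay below it at -0.46 (edgeR adjusted p = 0.127, called in 5 of 18 alternatives). Counts over whole genes thus did not show either transgene in the group named for it, so each library is grouped by its label alone. The study also measured both transgene transcripts by RT-qPCR. It reports that mouse lines were chosen with a ratio of transgene to endogenous mRNA above 5. Those data were not analysed here. Whether transgene reads could align to these genes in full was not tested.

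In WT lobes Chga, Scg2 and Chgb were among the most abundant transcripts. On the FPKM scale, which is per length, Chga, chromogranin A, stood at 1308 ± 209 (SD, n = 2) and ranked 9 among 14027 protein-coding genes tested. Scg2, secretogranin II, the precursor of secretoneurin, stood at 1117 ± 1.4 (SD, n = 2) and ranked 10. Chgb, chromogranin B, stood at 398 ± 30.1 (SD, n = 2), rank 89. The others stood lower. Scg3, secretogranin III, which binds granule membrane and holds chromogranin A to it, stood at 117 ± 10.1 (SD, n = 2), rank 472. Vgf, a granin first found as a nerve growth factor target and cut into several active peptides, stood at 25.4 ± 3.84 (SD, n = 2), rank 3083.

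The order Chga, Scg2, Chgb, Scg3, Vgf held in 8 of 8 libraries on the FPKM scale. The first step was narrow and varied, with a ratio of Chga to Scg2 from 1.04 in WT replicate 1 to 1.90 in double Tg replicate 1, and in WT the levels of these neighbours did not differ beyond their spread. Scg2 exceeded Chgb by 2.39 to 2.96 times and Chgb exceeded Scg3 by 2.87 to 3.79 times, steps that were steady across libraries. Scg3 exceeded Vgf by 2.79 to 38.2 times, and the width of that range came from Vgf. The first step also depended on how length was taken. With raw counts divided by GENCODE exonic length, Scg2 made up 43.1% and Chga 35.5% of the granin sum in the WT mean, the opposite order. By library, Scg2 was then ahead in both WT pools, AXBP1 replicate 2 and double Tg replicate 2, Chga was ahead in ACreb3l2 replicate 2, AXBP1 replicate 1 and double Tg replicate 1, and both stood at 39.2% in ACreb3l2 replicate 1.

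**Figure D1:**
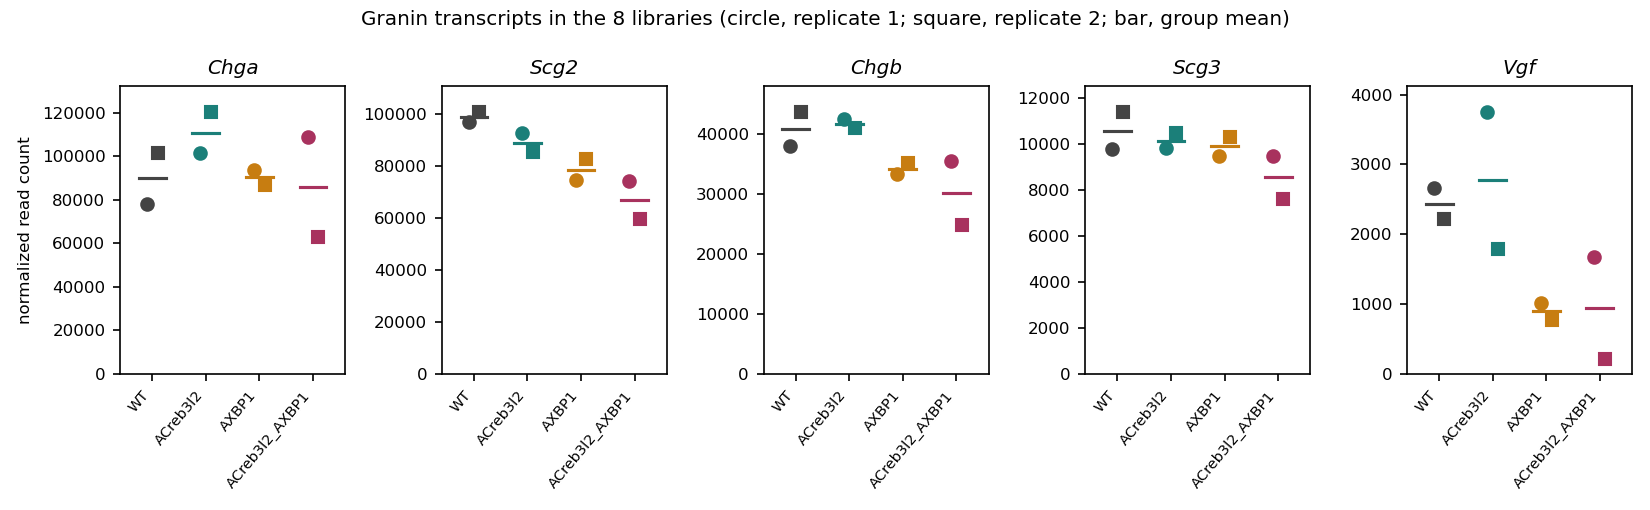
Normalized read counts (vertical axis, from 0, a separate scale for each gene) of the 5 granins in the 8 libraries by group, with a circle for replicate 1, a square for replicate 2 and a bar for the group mean. Scg2 stands below both WT libraries in every transgenic library, and double Tg replicate 2 is the lowest library in all 5 panels.

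Scg2 was the granin whose groups were best separated. The WT pools gave 96892 and 100524 normalized counts, the ACreb3l2 pools 92587 and 85016, the AXBP1 pools 74347 and 82451 and the double Tg pools 73931 and 59454. All 6 transgenic libraries were below both WT libraries. The double Tg libraries were the lowest in normalized counts, by a gap of 73931 to 74347, but not on the FPKM scale, where AXBP1 replicate 1 (743) lay between them (783 and 698). Against WT, Scg2 fell by 32.4% in double Tg, a log2 change of -0.57 (SE 0.128, 95% interval -0.85 to -0.28, edgeR adjusted p = 0.0253). It was the only granin that passed in that comparison, 1 of 5, where 10.1% of all genes passed, 6.99% by a fall. Over 18 alternative analyses the adjusted p of this change ran from 9.51e-08 to 0.166, and 12 of them called it.

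The Scg2 call rested on single libraries. Where a library is left out here and below, its group is a single library, which is assumed to vary like the other groups that supply the spread. Without double Tg replicate 2 its log2 change was -0.43 (edgeR adjusted p = 0.166), and without WT replicate 2 it was -0.54 (edgeR adjusted p = 0.105). Without either AXBP1 library, which is in neither group, the change was -0.57 or -0.56 and the edgeR adjusted p 0.0516 or 0.0509. Fitted on the WT and double Tg libraries alone it did not pass either (edgeR adjusted p = 0.0896). In the single transgenic groups Scg2 did not pass, with log2 changes of -0.15 (95% interval -0.44 to 0.13, edgeR adjusted p = 0.597) in ACreb3l2 and -0.33 (95% interval -0.62 to -0.05, edgeR adjusted p = 0.492) in AXBP1. The limma fits on FPKM put the AXBP1 value at -0.50 (limma adjusted p from 0.0831 to 0.197).

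For Chgb the WT pools gave 37907 and 43590 normalized counts, those with ACreb3l2 42366 and 40983, those with AXBP1 33231 and 35145 and those of double Tg 35398 and 24789. Its AXBP1 and double Tg libraries were all below the lower WT library, whereas the ACreb3l2 libraries lay between those of WT. The log2 change against WT was -0.44 in double Tg (95% interval -0.78 to -0.10, edgeR adjusted p = 0.0939), -0.25 for AXBP1 (adjusted p = 0.576 by edgeR; -0.41 in limma on log2(FPKM + 1), adjusted p = 0.113) and 0.03 for ACreb3l2 (adjusted p = 0.941 by edgeR). None of these passed. DESeq2, tried as another tool, called Chgb in double Tg (adjusted p = 0.0179), and so did edgeR without double Tg replicate 1 (log2 change -0.72, adjusted p = 0.01). Without double Tg replicate 2 it was -0.21 (edgeR adjusted p = 0.461), and without WT replicate 2 it was -0.34 (edgeR adjusted p = 0.365).

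Scg3 varied least among the granins. Its normalized counts stood at 9770 and 11389 for WT, 9827 and 10480 for ACreb3l2, 9497 and 10309 for AXBP1 and 9479 and 7621 for double Tg. In these counts only the double Tg group did not overlap WT, by the small gap between 9479 and 9770, whereas on the FPKM scale the AXBP1 pair (93.5 and 104) was also below WT (110 and 124). The log2 changes were -0.31 in double Tg (95% interval -0.57 to -0.04, edgeR adjusted p = 0.123), -0.10 for AXBP1 (adjusted p = 0.784 by edgeR; -0.24 in limma on log2(FPKM + 1), adjusted p = 0.193) and -0.06 for ACreb3l2 (adjusted p = 0.849 by edgeR). None passed, and without double Tg replicate 1 the value for double Tg was -0.47 (edgeR adjusted p = 0.0374). Without double Tg replicate 2 it was -0.17 (edgeR adjusted p = 0.56), and without WT replicate 2 it was -0.20 (edgeR adjusted p = 0.473).

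Chga passed in none of the comparisons. Its normalized counts stood at 78152 and 101355 for WT, 101325 and 120196 for ACreb3l2, 93639 and 86887 for AXBP1 and 108877 and 62657 for double Tg. The double Tg pair spanned more than the whole WT range. In these counts every transgenic group overlapped WT, that of ACreb3l2 only by 101325 against 101355. On the FPKM scale the ACreb3l2 pair (1546 and 1744) lay above both WT libraries (1160 and 1456). The log2 changes were 0.30 in ACreb3l2 (95% interval -0.27 to 0.87, edgeR adjusted p = 0.591), 0.01 for AXBP1 (95% interval -0.56 to 0.58, adjusted p = 0.992 by edgeR) and -0.07 for double Tg (95% interval -0.63 to 0.50, edgeR adjusted p = 0.885). The intervals leave room for a change of either sign, and the sign for AXBP1 and double Tg turned with the setting.

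Vgf was the granin with the widest spread between pools. The WT pools gave 2661 and 2219 normalized counts, the ACreb3l2 pools 3750 and 1792, the AXBP1 pools 1020 and 775 and the double Tg pools 1680 and 215. The AXBP1 and double Tg libraries were all below WT, the ACreb3l2 pair lay on either side of it, and the double Tg pair differed by 7.80 times. The log2 change was -1.44 in AXBP1 (SE 0.987, 95% interval -4.08 to 1.2, edgeR adjusted p = 0.638), -1.37 in double Tg (SE 0.981, 95% interval -4.00 to 1.25, edgeR adjusted p = 0.413) and 0.19 in ACreb3l2 (SE 0.948, edgeR adjusted p = 0.948). The AXBP1 and double Tg values were the largest of any granin, and neither passed. In double Tg the value turned on which pool was used, at -3.50 without replicate 1 and -0.55 without replicate 2, each resting on 1 double Tg library.

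**Figure D2:**
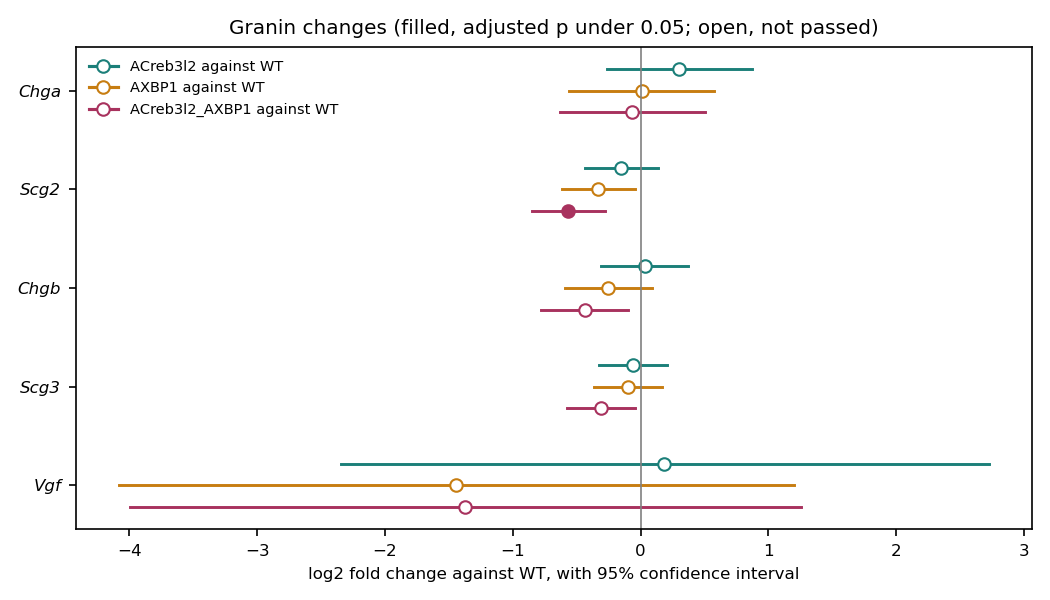
Log2 fold change against WT (horizontal axis) of each granin (rows) in ACreb3l2, AXBP1 and ACreb3l2_AXBP1, with bars for the 95% confidence interval and filled points where the edgeR adjusted p was under 0.05. Only Scg2 in ACreb3l2_AXBP1, at -0.57, is filled, and the Vgf intervals are far wider than the rest.

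Counted over the granins, 0 of 5 passed in ACreb3l2 against WT, where 3.04% of all genes passed in the edgeR test, and 0 of 5 had an unadjusted p under 0.05, against 16.8%. Their median log2 change was 0.03, against 0.01 for all genes. In normalized counts, the scale of the overlaps counted here, 1 of 5, Scg2, had groups that did not overlap, against 45.5% of all genes. On the FPKM scale Chga in ACreb3l2 (higher) and Scg3 in AXBP1 (lower) did not overlap WT either. In AXBP1 against WT, 0 of 5 passed in edgeR, as did 0.0% of all genes (0 of 15580), and 1 of 5, Scg2, had an unadjusted p under 0.05 against 9.97% of all genes. Their median was -0.25, against 0.00, and 3 of 5 (Chgb, Scg2 and Vgf) had groups that did not overlap, against 46.2%. In double Tg the median was -0.44, against 0.01, 3 of 5 had an unadjusted p under 0.05 against 29.7%, and 4 of 5 did not overlap WT against 58.3%, with all 4 lower against 28.7% lower. The 3 comparisons share the WT libraries. Without double Tg replicate 1, 4 of 5 granins passed in double Tg (edgeR, all but Chga) with 13.4% of all genes, and without replicate 2, 0 of 5 did with 1.4% of all genes; each time 1 library stood for double Tg and the other groups supplied the spread.

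The transgenic groups were also set against each other. In ACreb3l2 against AXBP1, 0 of 5 granins passed in edgeR (0.719% of all genes) and 0 of 5 had an unadjusted p under 0.05 (9.49% of genes), with log2 differences from 0.04 for Scg3 to 1.63 for Vgf, all on the side of higher in ACreb3l2. In double Tg against ACreb3l2, 0 of 5 passed (0.0% of all genes) and 2 of 5, Chgb at -0.47 and Scg2 at -0.41, had an unadjusted p under 0.05 against 7.14% of genes. In double Tg against AXBP1, 0 of 5 passed (0.623% of all genes) and 0 of 5 had an unadjusted p under 0.05 (11.1% of genes), with values from -0.23 for Scg2 to 0.07 for Vgf. The test for any difference among the 4 groups passed none of the 5 (3.21% of all genes), with edgeR adjusted p = 0.108 for Scg2 and 0.231 for Chgb; 2 of 5, these same genes, had an unadjusted p under 0.05, against 19.2% of genes.

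Whether the double Tg change departed from the sum of the single changes was tested as an interaction. No granin passed, and no gene at all did (edgeR, 0.0% of 15580, with 386 genes or 2.48% at an unadjusted p under 0.05, and no granin among them). For Scg2 the interaction was -0.08 (95% interval -0.48 to 0.32, edgeR adjusted p = 1.0), so that its double Tg value lay near the sum of both single values, with an interval that allows a departure of either sign. For Chga it was -0.38 (95% interval -1.18 to 0.43) and for Vgf -0.12 (95% interval -3.78 to 3.55).

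The libraries themselves bear on these values. Double Tg replicate 2 was the lowest of the 8 libraries for 5 of 5 granins, and for 24.6% of all genes tested. Pomc was lowest in double Tg replicate 2 as well, at 2047008 normalized counts against 2762301 in double Tg replicate 1 and 3455634 and 5173331 in WT. Tbx19, the transcription factor Tpit that specifies POMC cells, was at 9590 in that library, against 14454 in the other double Tg library and 21306 and 23073 in WT. Tbx19 fell in double Tg, by 0.88 on the log2 scale (edgeR adjusted p = 0.0245), and Pomc had a log2 change of -0.84 (edgeR adjusted p = 0.0614), which did not pass. The other melanotrope markers did not pass either. The log2 change was -0.66 for the convertase Pcsk2 (edgeR adjusted p = 0.162), whereas Pax7, the factor that sets melanotropes apart from corticotropes, and the dopamine receptor Drd2 overlapped WT at -0.08 and -0.19 (edgeR adjusted p = 0.822 and 0.464). WT replicate 2 stood apart to a like degree, as the highest library for 3 of 5 granins and for 24.5% of all genes, and the lowest for 24.2%.

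Summed markers of other cells differed between some groups. In edgeR 10.1% of all genes were called in double Tg against WT, and 3.04% in ACreb3l2. In AXBP1 0 of 15580 genes were called, so 0 called there is no result about the markers. The 9 pituicyte and astrocyte markers summed to 66600 and 84550 normalized counts in double Tg, against 65030 and 47380 in WT, with the highest sum in double Tg replicate 2. Their median log2 change was 0.45 in double Tg and 0.38 in ACreb3l2. In double Tg 1 of 9 was called, near the share of all genes. It was the water channel Aqp4, which rose (log2 change 0.51, edgeR adjusted p = 0.0464). Most of the sum was Scn7a and Col25a1 (log2 changes of 0.53 each, not called), while Vim and Gfap stood at 0.0069 and 0.03. The 8 endothelial markers summed to 7663 and 9439 in double Tg, against 6674 and 5303 in WT, with a median log2 change of 0.60 and 0 of 8 called, and to 9018 and 7215 in AXBP1 (median 0.44, 0 called). The 8 fibroblast and pericyte markers summed to 39120 and 33820 in AXBP1 and 33790 and 39540 in double Tg, all above WT (33690 and 25870), with medians of 0.31 in each and 0 called. The 4 markers of hypothalamic axons, which are processes of granin-making neurons, summed to 3461 and 4496 in double Tg and overlapped WT (4314 and 4009). Of these 4, the neurofilament gene Nefm fell in double Tg (log2 change -0.95, edgeR adjusted p = 0.0254) and Nefl stood at -0.50, while the hormone genes Avp and Oxt stood at -0.0071 and -0.05. The 12 anterior lobe markers summed to 81130 and 84920 in AXBP1, below all other libraries (107300 to 231300). That sum was mostly Gh (49690 and 63580, against 115700 and 195500 in WT), whereas Gnrhr, at 165 and 163 against 135 and 98.0, stood higher, and the list's median log2 change was -0.07 with 0 of 12 called. The 4 gonadotrope markers summed to 4550 and 3567 in ACreb3l2, above all others (1729 to 2756). No marker on any of these lists was at 0. Granins are also made in the anterior lobe, and the part of these cells in the granin values was not tested.

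The granin message was also set against each library's Pomc. The summed granin FPKM was 2791 and 3141 with WT, 3226 and 3228 with ACreb3l2, 2343 and 2404 with AXBP1 and 2712 and 1995 with double Tg. As a percentage of the Pomc FPKM it came to 2.87 and 2.22 with WT, 2.87 and 3.42 with ACreb3l2, 3.01 and 2.58 with AXBP1 and 3.77 and 3.33 with double Tg. In summed FPKM both AXBP1 and both double Tg libraries held less granin message than either WT library. In normalized counts the double Tg sums overlapped WT, at 229366 and 154736 against 225382 and 259076. The AXBP1 sums, 211735 and 215567, were below WT in normalized counts as well. Per Pomc message the double Tg libraries were above WT on both scales (8.3% and 7.56% against 6.52% and 5.01% in normalized counts), as values without a test.

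The make-up of the granin message was compared next. Chga made up 44.0% ± 3.39 of the summed granin FPKM with WT, 51.0% ± 4.31 with ACreb3l2, 49.6% ± 2.83 with AXBP1 and 51.4% ± 4.95 in double Tg (SD, n = 2 each). Scg2 made up 37.8% ± 3.11 with WT, 31.7% ± 3.11 with ACreb3l2, 33.3% ± 2.26 with AXBP1 and 31.9% ± 4.31 in double Tg. Chgb stayed between 12.3% and 13.4%, Scg3 between 3.57% and 4.16% and Vgf between 0.353% and 0.926% in the group means. None of the 5 shares passed an exact permutation test over the 105 ways to pair the libraries (p from 0.267 to 0.4, adjusted p = 0.4 for all 5; the smallest p this design allows is 0.00952).

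**Figure D3:**
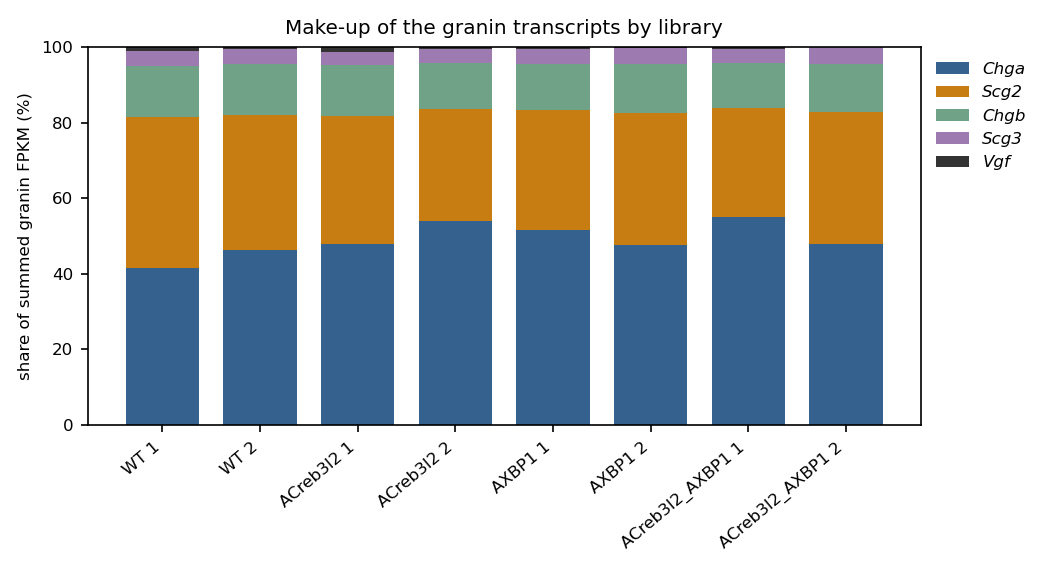
Share of each granin (colour) in the summed granin FPKM of each library (vertical axis in percent; 1 bar per library, named by group and replicate). Chga and Scg2 make up most of every bar, and the Chga share is lowest in WT replicate 1, at 41.6%.

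Across the 8 libraries the log2 CPM of the granins went together to differing degrees. Pearson's r was 0.921 for Chgb with Scg2, 0.924 for Chgb with Vgf and 0.908 for Chgb with Scg3. The lowest value was that of Chga with Scg2, 0.474, and the pairs of Chga with the others (0.681 to 0.771) lay near that of Scg3 with Vgf (0.724). These values describe 8 points that share 4 groups and 1 low library. Among 6569 genes with a mean normalized count above 1000, those most like Chgb were Atp6v1b2 (r = 0.999), a subunit of the proton pump that acidifies granules, Abcf2 (0.988) and the keratin Krt18 (0.986). Those most like Scg2 were Cbarp (r = 0.99), Rcc2 (0.986) and Tm2d3 (0.985). Scg3 was most like Irf2bpl (r = 0.991), Tiam1 (0.985) and Rgs7 (0.981), Chga most like Ppp5c (r = 0.973), Dlgap3 (0.97) and Taf6 (0.962), and Vgf most like Arhgef18 (r = 0.959), Abcf2 (0.956) and the SNARE protein Vti1b (0.954).

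A pair of proteins often grouped with the granins was measured beside them. Scg5, the 7B2 chaperone of the convertase PC2, stood at 25017 and 24393 normalized counts with WT, 24757 and 22446 with ACreb3l2, 23204 and 27833 with AXBP1 and 20378 and 20502 with double Tg. In these counts the double Tg libraries were the lowest and close to each other. On the FPKM scale AXBP1 replicate 1 (490) lay between them (455 and 516). The log2 change in double Tg was -0.27 (95% interval -0.51 to -0.04, edgeR adjusted p = 0.122), which did not pass. Pcsk1n, which encodes proSAAS, an inhibitor of the convertase PC1/3, had log2 changes of 0.20, -0.04 and -0.04 in ACreb3l2, AXBP1 and double Tg (edgeR adjusted p = 0.344, 0.907 and 0.828). It shares 135 exonic bases with Eras on the other strand, and how strand was treated in counting is not stated.

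The rest of the granule was described with 64 genes in 4 lists, of which 63 were tested. In ACreb3l2 against WT 4 fell and 0 rose (6.35% of those tested, against 3.04% of all genes), in AXBP1 0 passed in edgeR (0 of all genes; 2 of 63 and 0.507% with DESeq2, 10 of 63 and 2.13% with no filter on low counts), and in double Tg 11 fell and 3 rose (22.2%, against 10.1%). Their median log2 change was -0.05, -0.04 and -0.18 in the same order, against 0.01, 0.00 and 0.01 for all genes. The 14 calls in double Tg became 2 without WT replicate 2 (2.28% of all genes called), 3 without double Tg replicate 2 (1.4%), 9 without either AXBP1 library (5.4% and 5.31%) and 21 without double Tg replicate 1 (13.4%). The 4 calls in ACreb3l2 became 0 without WT replicate 2 (1.01% of all genes) or either ACreb3l2 library (1.25% and 0.982%), and 1 without either AXBP1 library (1.8% and 1.78%). The calls over all genes thus moved with the same libraries.

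Of the 9 prohormone processing enzymes, 1 passed in double Tg (11.1%, near the 10.1% of all genes). Pam, which amidates the ends of peptide hormones, had 86339 and 84239 normalized counts in WT and 65195 and 49386 in double Tg, and fell by 32.8% (log2 change -0.57, edgeR adjusted p = 0.0268). It was lower than both WT libraries in all 6 transgenic libraries. Leaving out either WT library ended this call (edgeR adjusted p = 0.052 and 0.0937), as did leaving out double Tg replicate 2 (0.145). Pam shares exonic bases with an antisense transcript, B230216N24Rik.

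Of the 27 tested genes of granule biogenesis and membrane, 6 fell and 0 rose in double Tg (22.2%, against 10.1% of all genes called and 6.99% called lower). Tmem163, a zinc transporter, had 1618 and 1906 normalized counts in WT and 1008 and 740 in double Tg, a log2 change of -1.01 (edgeR adjusted p = 0.00746). Hid1, which acts in granule formation at the trans-Golgi, fell by 49.9% (edgeR adjusted p = 0.0216). Ica1, a BAR domain protein of immature granules, had 5352 and 5286 normalized counts in WT and 3219 and 2134 in double Tg (log2 change -0.99, edgeR adjusted p = 0.0195). In none of these genes did the double Tg libraries overlap those of WT, as held for 58.3% of all genes. They were named because they passed in the same comparison, so this adds little to the calls. Syt4, a synaptotagmin of immature granules, fell by 49.5% (edgeR adjusted p = 0.00818).

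Arfip2 and Pick1, BAR domain proteins that shape budding granules, passed in both groups with ACreb3l2. Arfip2 had 3704 and 4633 normalized counts with WT, 2297 and 2382 with ACreb3l2 and 2741 and 2127 in double Tg, with log2 changes of -0.83 (edgeR adjusted p = 0.0118) and -0.78 (edgeR adjusted p = 0.0103). In AXBP1 it had 3500 and 3353. Pick1 had log2 changes of -0.63 in each, with edgeR adjusted p = 0.0248 and 0.0158. Ccdc186, which acts in granule maturation, fell in ACreb3l2 (log2 change -0.45, edgeR adjusted p = 0.0424). Arfip2, Pick1, Tmem163, Syt4 and the exocytosis gene Syt7 share exonic bases with another annotated gene, so their counts are less certain.

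Of the 25 genes of regulated exocytosis, 4 fell and 3 rose in double Tg (28.0%, against 10.1% of all genes called and 6.99% called lower). Rab3d, a small GTPase of secretory granules, had 2633 and 3942 normalized counts with WT, 1950 and 1801 with ACreb3l2 and 1849 and 1632 in double Tg, with log2 changes of -0.81 (edgeR adjusted p = 0.0449) and -0.92 (edgeR adjusted p = 0.0166). Syt7, a calcium sensor of exocytosis, fell by 0.96 on the log2 scale (edgeR adjusted p = 0.0444), Cadps, a priming factor, by 0.60 (0.0181), and Vamp2, the granule SNARE, by 0.58 (0.0148). The other direction held for Sytl2, a Rab27 effector, with 111 and 61.0 normalized counts in WT and 159 and 323 in double Tg (log2 change 1.48, edgeR adjusted p = 0.0385), and for Cplx2, complexin 2 (log2 change 0.43, edgeR adjusted p = 0.0497). Unc13b, a priming factor named after its value was seen, was the other gene that rose (log2 change 0.27, edgeR adjusted p = 0.0446). Of 18 alternatives, 3 called Unc13b, 5 Cplx2 and 7 Sytl2 in double Tg, and the named genes that fell there were called in 10 (Syt7) to 16 (Arfip2, Rab3d, Syt4 and Tmem163). In ACreb3l2, 6 of 18 called Rab3d and 7 called Ccdc186.

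**Figure D4:**
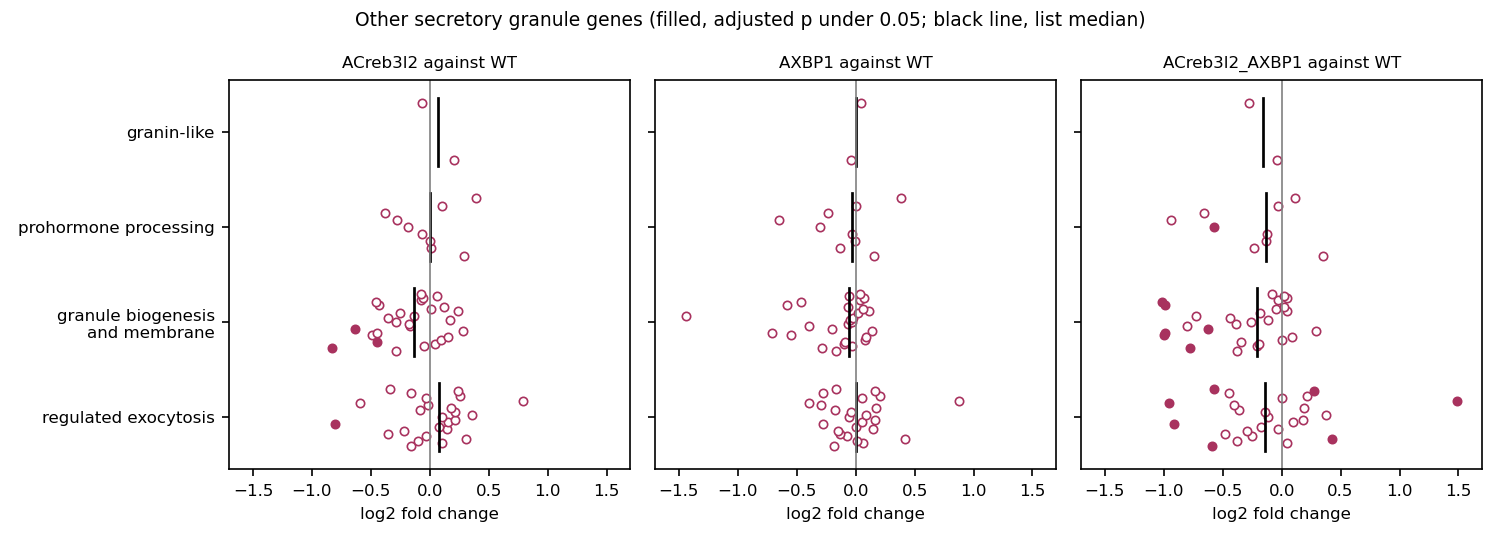
Log2 fold change against WT (horizontal axis) of 63 other granule genes in 4 lists (rows), 1 panel per transgenic group, with 1 point per gene, filled where the edgeR adjusted p was under 0.05, and a black line at the list median. ACreb3l2_AXBP1 has 14 filled points, of which 11 lie below 0, ACreb3l2 has 4 and AXBP1 has 0.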

How the data were processed

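RNA-seq libraries of 8 NIL pools were read as 50 bp paired ends. The raw counts deposited by the authors are whole reads per Ensembl gene. According to the methods, reads were trimmed with Trimmomatic, aligned to mm10 with Tophat and counted with HTSeq-count. A software list names STAR and cufflinks, and annotation release and strand setting are not given in the sources used here. The labels name ribosomal depletion, the methods a poly(A) kit. The FPKM values deposited by the authors carry their own length and depth scaling, and split 51 genes over several loci, which were summed.

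Counts of genes with a mean normalized count above 20 (15580 genes, 99.9% of counts, the study's own limit) were fitted in edgeR 4.0.16 (R 4.3.3) with TMM, a robust quasi-likelihood test and a mean for each of the 4 groups over all 8 libraries. Alternatives were DESeq2 1.42.0, limma 3.58.1 on log2(FPKM + 1) and log2(FPKM + 0.1), other scalings, no filter, compared groups alone, a replicate block and leaving out each library. The self-test on simulated counts was run first. Named genes were the granins, Scg5, Pcsk1n, up to 6 called genes of largest change per list and comparison with WT, the 3 genes most like each granin, and Pomc, Tbx19, Creb3l2 and Xbp1. Unc13b and the single cell type markers given with values were named after their values were seen. The members, lists and tests were chosen with earlier results of these data known. With 2 pools per group the depth (at least 28256086 counts) limits the precision less than the spread between pools.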

Additional observations from a re-analysis of the deposited data

How the results depend on the processing

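Left out in turn, single libraries moved the granins called in double Tg against WT between 0 and 4 and those called for any difference between 0 and 2, and left the other granin counts at 0; without 1 library the 63 granule genes gave 2 to 21 calls in double Tg (14 with all) and 0 to 5 in ACreb3l2 (4 with all). The granule calls in double Tg, ACreb3l2 and AXBP1 against WT were 19, 7 and 2 with DESeq2 (13.3%, 4.85% and 0.507% of all genes called), 25, 13 and 10 in edgeR when all genes were kept (10.9%, 4.92% and 2.13%), and 1, 0 and 0 with limma on log2(FPKM + 1) and no filter (1.21%, 0.429% and 0.0363%). In double Tg against WT the granins called were 2 with DESeq2 (Scg2 and Chgb; 13.3% of all genes called), 0 with the compared groups alone (4.2%), 0 with limma on log2(FPKM + 1) and no filter (1.21%), and 4 without the filter on low counts (10.9%). That last setting also called 1 granin in ACreb3l2 against WT (4.92% of all genes), 2 in AXBP1 against WT (2.13%), 1 in ACreb3l2 against AXBP1 (2.47%), and 4 each in double Tg against ACreb3l2 (1.74%) and for any difference (9.75%). It gave Vgf an adjusted p of 4.13e-31 in double Tg, where the pools differ by 7.80 times; the cause was not tested. For any difference DESeq2 called 2 granins (8.97% of all genes) and limma 1 with either pseudocount (2.48% and 2.89%). Replicate numbers did not pair the samples (deviations of same-numbered libraries correlated at -0.355 to 0.0646 between groups). With the replicate block 1 granin was called in double Tg against WT, as without it, and Vgf in double Tg against AXBP1 was -0.26. With the numbers crossed in double Tg, a pairing added after seeing the data, 3 were called (13.2% of all genes, against 7.14% with the numbers as labelled). The interaction called 0 granins in every alternative run.

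Values near 0 changed sign. Chga in AXBP1 against WT was -0.14 under the 3 limma fits, and -0.17 to 0.21 without 1 library. Chga in double Tg against WT was 0.091 with library size alone and -0.52 to 0.27 without 1 library, and against AXBP1 it was 0.014 with library size alone, 0.021 under the limma fits and -0.53 to 0.27 without 1 library. Library size alone also turned Scg3 (0.020) and Scg5 (0.0079) in ACreb3l2 against WT, and Pcsk1n in AXBP1 (0.026) and double Tg (0.12) against WT; this scaling moved the median of all genes in double Tg from 0.01 to 0.17. The limma fits gave -0.12 for Scg5 in AXBP1 against WT, and -0.30 (pseudocount 1) and -0.42 (pseudocount 0.1) for Vgf in double Tg against AXBP1. Without 1 library the ranges were -0.065 to 0.14 for Chgb, -0.17 to 0.054 for Scg3, -0.14 to 0.0078 for Scg5 and -0.44 to 0.62 for Vgf in ACreb3l2 against WT. They were -0.20 to 0.018 for Scg3, -0.089 to 0.17 for Scg5 and -0.12 to 0.055 for Pcsk1n in AXBP1 against WT. They were -0.13 to 0.049 for Pcsk1n in double Tg against WT, -0.46 to 0.049 for Chgb and -2.06 to 0.90 for Vgf in double Tg against AXBP1, and -0.022 to 0.098 for Scg3 in ACreb3l2 against AXBP1. With counts per exonic length the shares in WT, ACreb3l2, AXBP1 and double Tg were 35.5%, 42.2%, 40.8% and 42.5% for Chga, 16.2%, 16.0%, 15.6% and 15.2% for Chgb and 43.1%, 37.0%, 38.8% and 37.4% for Scg2, and 4.22%, 3.88% and 4.5% for Scg3 in the first 3; none passed the exact permutation test.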
